A study of Mus musculus with 6 samples.

Results

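The cholesterol synthesis enzymes described here were the products of 8 genes, namely Hmgcs1, Idi1, Fdps, Fdft1, Sqle, Lss, Cyp51 and Dhcr7, and they were read in whole FVB mouse embryos at 10.5 days of gestation. Every probe set of the array that the platform's table paired with one of these symbols and with no other was taken, which gave 21 of 45101 probe sets. The diabetes-exposed embryos came from dams of 7 to 9 weeks of age that were made diabetic by 2 injections of 100 mg streptozotocin per kg body weight, a compound toxic to pancreatic beta cells, and that exceeded a blood glucose of 250 mg per dl. The control embryos came from control pregnancies of the same strain, and all embryos looked morphologically normal. Each group held 9 embryos, every embryo coming from its own pregnancy, and RNA of 3 embryos was mixed in equal amounts for each of 3 pools, so that the spread between pools is not that between single embryos. Each pool was read on its own Affymetrix mouse expression array. An exact two-sided permutation test of 3 pools against 3 cannot give a p below 0.1, and the adjusted p-values below therefore come from a limma fit across all tested probe sets. In whole embryos, fewer cells of a type and less RNA per cell cannot be told apart.

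Cholesterol is built from acetyl units through mevalonate, isopentenyl diphosphate and farnesyl diphosphate to squalene, which is then oxidised, closed into a ring and trimmed to cholesterol. Hmgcs1 acts before mevalonate, Idi1 and Fdps on the isoprenoid units, Fdft1, Sqle and Lss on the way from farnesyl diphosphate to lanosterol, and Cyp51 and Dhcr7 on the sterol ring. The genes of the pathway are known targets of SREBP-2, a membrane-bound transcription factor that Scap carries to the Golgi for cleavage when sterols are low and that the Insig proteins hold back when sterols are high. In embryos cholesterol is needed for membranes of growing tissue and for the covalent modification of Hedgehog proteins, and loss of Dhcr7 function is known for malformations in man and mouse.

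The array's own controls set diabetes-exposed pools 1 and 3 farthest from the control pools, and exposed pool 2 also lay above every control pool. The 3′ to 5′ signal ratio of beta-actin was 1.71, 1.76 and 2.19 in control pools 1 to 3 and 10.1, 3.09 and 10.3 in diabetes-exposed pools 1 to 3. The poly-A spikes, bacterial transcripts mixed into the RNA, had 3′ to middle ratios of 2.10, 2.07 and 2.52 in control pools and of 6.56, 3.47 and 7.00 in diabetes-exposed pools. Median signals ran from 82.5 to 103.3 on control arrays and from 74.1 to 78.9 on diabetes-exposed arrays. Markers of the embryo's tissues were read only where they passed the filter on dim probe sets. Detection calls were not used, so their presence in each pool was not tested. The lowest signals were 25.1 among liver and yolk sac markers and 30.7 among decidua and trophoblast markers. Summed signals differed between groups for every set of markers but the erythroid one. The 6 neural markers, of which 5 fell, summed to between 10640 and 11441 in control pools and to between 6894 and 7386 in diabetes-exposed pools. The 6 heart and somite markers, of which 4 rose and 1 fell, summed to between 8081 and 9192 against between 13668 and 15691. The 8 liver and yolk sac markers that were measured of 10 listed, of which 2 rose and 0 fell, summed to between 4774 and 5496 against between 7414 and 11189. Of the 6 erythroid markers measured, 1 fell and 0 rose, and their sums overlapped between the groups. Only 2 of 9 listed decidua and trophoblast markers were measured. The others had no probe set paired with them alone or did not pass the filter on dim probe sets. The sum of the 2 was between 5936 and 6787 in control pools and between 404 and 451 in diabetes-exposed pools. Of these Prl8a2, a prolactin-family gene of the decidua, fell, and it read 6522, 5699 and 6412 in control pools and 39, 39.3 and 30.7 in diabetes-exposed pools. Hand1, which is also expressed in the embryo's heart, rose, and it read 265, 237 and 255 in control pools and 369.8, 412 and 373 in diabetes-exposed pools (log2 fold change 0.61, SE 0.13, adjusted p = 0.0079). The part that these tissues and the array controls play in the enzyme signals was not tested except where a fit is given below.

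To show what the enzyme genes carry at their starts, their promoters were searched in RefSeq sequence of build GRCm38.p6, from 250 bases before to 50 bases after each annotated start. The table held 7 promoters for 5 of the 8 genes, and 32851 promoters in all. The letters TCACNCCAC, a sterol response element as SREBP binds it, stood on either strand in 1 of the 7 promoters, that of Hmgcs1, and in 1.24% of all promoters. CCAAT, the core that the factor NF-Y binds, stood in 5 of the 7 and in 37.4% of all, and GGGCGG, an Sp1 box, in 6 of the 7 and in 35.7% of all. A match describes the letters only and is no shown site, and a window without a match says nothing of the factor. Windows of 30 bases are printed in the direction of the gene for the sterol response letters and for 1 CCAAT match of each gene that had one, because these are the sequences that the enzyme genes are known to share, with the matched letters in capitals (ATTGG is CCAAT on the other strand).
Hmgcs1, sterol response letters, chr13:119690204-119690233, plus strand: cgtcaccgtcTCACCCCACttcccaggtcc
Hmgcs1, CCAAT, chr13:119690294-119690323, plus strand: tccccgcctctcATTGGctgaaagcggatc
Idi1, CCAAT, chr13:8885549-8885578, plus strand: tgcctccagctgATTGGcgagcccgggcat
Lss, CCAAT, chr10:76531531-76531560, plus strand: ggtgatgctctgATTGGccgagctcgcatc
Cyp51, CCAAT, chr5:4104709-4104738, minus strand: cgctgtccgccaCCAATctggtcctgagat
Dhcr7, CCAAT, chr7:143830117-143830146, plus strand: tcactgccttcaCCAATcacaggacgcagc

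The enzymes did not move together. Read at the brightest tested probe set of each gene, Fdps, Sqle and Cyp51 fell in diabetes-exposed embryos, Fdft1 rose, and Hmgcs1, Idi1, Lss and Dhcr7 did not pass the test, where a gene is said to rise or fall when its adjusted p was under 0.05 at any fold. Thus 3 of 8 genes fell, against 19.9% of all 13956 genes, and 1 of 8 rose, against 17.6% of all genes. Groups did not overlap in 4 of the 8 genes and in 52.3% of all genes. The median log2 fold change of the 8 genes, diabetes-exposed minus control, was −0.14, beside −0.00025 over all genes tested, and 6 of the 8 lay below 0. Centring each array on its median signal, which moved the median of all genes to 0.30, turned the enzymes' median to 0.16, so that the side of 0 on which it lies depends on the scaling. Relative to all genes the median was −0.14 in both of these, but −0.30 under quantile and −0.22 under loess normalization, −0.30 without probe sets that may bind several transcripts, and −0.0059 with the mean of a gene's probe sets. Of the 21 probe sets, 18 were bright enough to be tested, and of these 5 fell, 4 rose and 9 were not called. All tested probe sets fell in 21.8% and rose in 14.4% of cases, and groups did not overlap in 9 of the 18 and in 49.9% of all.

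**Figure D1:**
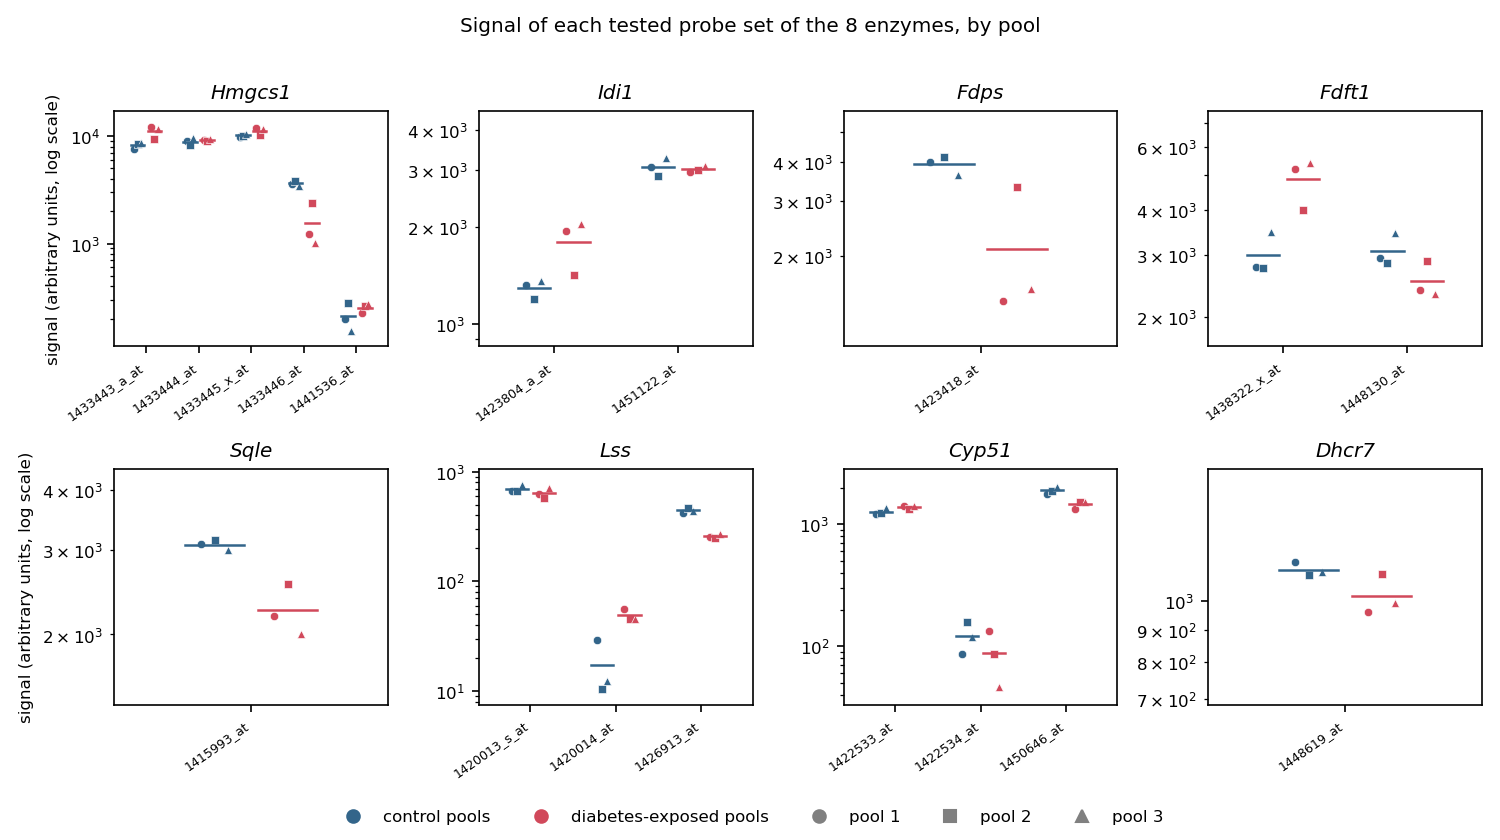
Deposited signal (arbitrary units, log scale) of each of the 18 tested probe sets of the 8 enzyme genes. Blue marks are the 3 control pools and red marks the 3 diabetes-exposed pools, with a shape for each pool number and a line at the group's mean, and the square of diabetes-exposed pool 2 lies nearest to the controls in 7 of the 9 probe sets that passed the test.

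Hmgcs1, which joins acetyl-CoA to acetoacetyl-CoA to make HMG-CoA, had 5 tested probe sets, and they went different ways. The brightest, 1433445_x_at, read 9887, 10016 and 10549.9 in control pools 1 to 3 and 11849, 10199 and 11624.5 in diabetes-exposed pools 1 to 3. With means of 10151 ± 351 and 11224 ± 895 (SD, n = 3 each), pool 2 of the exposed group lay among the controls and the difference of 0.14 in log2 units (SE 0.08, adjusted p = 0.22) did not pass the test, although it did without that pool (0.21, adjusted p = 0.020). The probe set 1433446_at read 3582, 3852 and 3455 in control pools and 1236, 2409 and 1007 in diabetes-exposed pools. It fell 2.51-fold, by 1.33 on the log2 scale (SE 0.27, adjusted p = 0.0059), with no overlap and with exposed pool 2 between the controls and the other exposed pools. In contrast, 1433443_a_at read 7528, 8382 and 8641 in control pools and 12181.5, 9434 and 11643 in diabetes-exposed pools, and it rose 1.35-fold (log2 fold change 0.43, SE 0.11, adjusted p = 0.016). The remaining pair, 1433444_at and the much dimmer 1441536_at, had log2 fold changes of 0.05 and 0.30 with adjusted p-values of 0.68 and 0.33. The same gene was thus called in both directions, depending on the probe set read.

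Idi1, which interconverts isopentenyl and dimethylallyl diphosphate, read 3071.5, 2869 and 3265 in control pools and 2954, 3004 and 3099 in diabetes-exposed pools at its brightest probe set, 1451122_at. Those groups overlapped fully, with means of 3069 ± 198 and 3019 ± 73.7, and the log2 fold change was −0.02 (SE 0.08, adjusted p = 0.86). Its other probe set, 1423804_a_at, read 1322, 1194 and 1363 in control pools and 1939, 1421 and 2038 in diabetes-exposed pools. All exposed pools lay above all control pools there, pool 2 by little, and the signal rose 1.38-fold (log2 fold change 0.46, SE 0.14, adjusted p = 0.033).

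Fdps makes farnesyl diphosphate, the branch point between sterols and other isoprenoids. Its one tested probe set, 1423418_at, read 4004, 4160.1 and 3629 in control pools and 1430.1, 3322 and 1567 in diabetes-exposed pools. Exposed pools 1 and 3 lay far below the controls, while pool 2 lay just under the lowest of them. The mean fell 2.01-fold, from 3931 ± 273 to 2106 ± 1055, which is −1.01 in log2 units (SE 0.27, adjusted p = 0.021) and the largest change among the 8 genes at their brightest probe sets. The call was lost on leaving out control pool 1 (adjusted p = 0.064), control pool 2 (0.063), exposed pool 1 (0.077) or exposed pool 3 (0.077). A further probe set, 1438150_at, was too dim to be tested, with signals of 0.7, 0.7 and 1.1 in control and 7.1, 1.3 and 1.1 in diabetes-exposed pools.

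Fdft1, squalene synthase, takes the first step that belongs to sterols alone. At 1438322_x_at it read 2766, 2759 and 3476 in control pools and 5228, 3999.8 and 5408.5 in diabetes-exposed pools. Groups did not overlap, and the mean rose 1.62-fold, from 3000.4 ± 412 to 4879 ± 767 (log2 fold change 0.70, SE 0.14, adjusted p = 0.0055). Its 1448130_at read 2936, 2835 and 3455 in control pools and 2395, 2870.2 and 2322 in diabetes-exposed pools. There the direction was the opposite, with a log2 fold change of −0.28 (SE 0.11, adjusted p = 0.087), and exposed pool 2 lay among the controls. The suffix _x marks probe sets whose probes may also bind other transcripts, so the brighter signal is uncertain, as are those of Hmgcs1 and of Lss, whose _s marks the same. With such probe sets left out, Fdft1 took the value of 1448130_at, Hmgcs1 that of 1433443_a_at and Lss that of 1426913_at. The remaining probe sets of the gene, 1438918_at and 1438919_x_at, were not tested, with signals between 7.2 and 37.9 in all pools.

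Sqle, squalene epoxidase, puts the first oxygen into the molecule and is a controlled step of the pathway. Its single probe set, 1415993_at, read 3083, 3149 and 2998 in control pools and 2187, 2552 and 2001 in diabetes-exposed pools. Every exposed pool lay below every control pool, with pool 2 the nearest, and the mean fell 1.38-fold, from 3077 ± 75.8 to 2247 ± 280.2 (log2 fold change −0.46, SE 0.10, adjusted p = 0.0087). Across 20 alternative settings Sqle was called lower in 16, more often than any other of the 8 genes, and the call was lost with median centring, where its log2 fold change was −0.16 (adjusted p = 0.46).

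Lss, which closes squalene epoxide into lanosterol, was again divided among its probe sets. The brightest, 1420013_s_at, read 669, 671 and 747 in control pools and 623, 569 and 711 in diabetes-exposed pools, with overlap and a log2 fold change of −0.14 (SE 0.12, adjusted p = 0.42). The probe set 1426913_at read 421, 469 and 438 in control pools and 255.5, 246 and 269.8 in diabetes-exposed pools. The 3 exposed pools lay close to each other and clear of the controls, and the signal fell 1.72-fold (log2 fold change −0.78, SE 0.13, adjusted p = 0.0023), the smallest adjusted p of the 18 probe sets. Its dim 1420014_at, under the median signal of its array in every pool, read 29.3, 10.5 and 12.2 in control and 56, 45.3 and 45 in diabetes-exposed pools and passed the test in the other direction (log2 fold change 1.64, SE 0.54, adjusted p = 0.042).

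Cyp51, the lanosterol demethylase, read 1781, 1893 and 2016.5 in control pools and 1344, 1525 and 1512 in diabetes-exposed pools at 1450646_at. All exposed pools lay below all control pools, and the mean fell 1.30-fold, from 1897 ± 118 to 1460.3 ± 101.2 (log2 fold change −0.38, SE 0.09, adjusted p = 0.015). The call was lost without control pool 2 (adjusted p = 0.056) or exposed pool 1 (0.059), and with median centring (log2 fold change −0.08, adjusted p = 0.76). At 1422533_at the gene read 1227.5, 1241 and 1356.5 in control and 1428, 1325 and 1403 in diabetes-exposed pools, with a log2 fold change of 0.12 (adjusted p = 0.34), and a dim probe set, 1422534_at, had −0.54 (SE 0.40, adjusted p = 0.33).

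Dhcr7, which reduces 7-dehydrocholesterol in the last step to cholesterol, read 1151, 1098 and 1109 in control pools and 959, 1101 and 989.6 in diabetes-exposed pools at its single probe set, 1448619_at. Pool 2 of the exposed group lay among the controls and the other exposed pools below them. The means were 1119 ± 28.0 and 1016 ± 74.7, and the log2 fold change of −0.14 (SE 0.10, adjusted p = 0.29) did not pass the test here or in any of the 20 alternative settings.

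**Figure D2:**
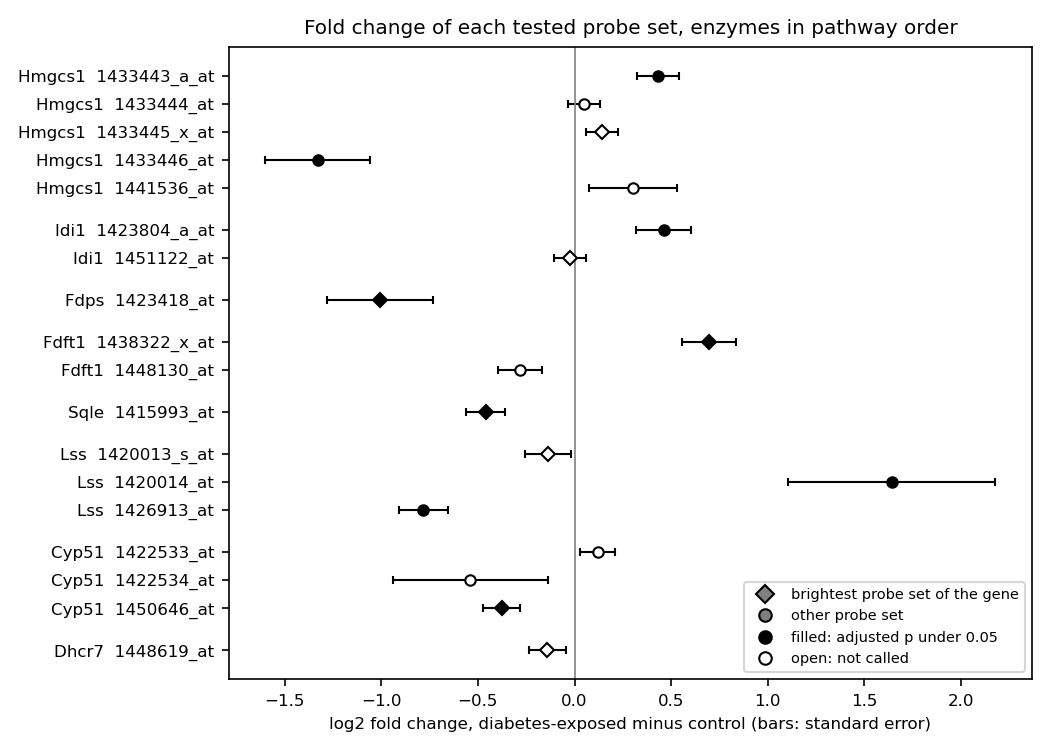
Log2 fold change, diabetes-exposed minus control, of the 18 tested probe sets in pathway order, with the standard error of the limma fit as bars. Diamonds mark the brightest probe set of each gene and filled marks those with an adjusted p under 0.05, and filled marks of Hmgcs1 and Lss lie on both sides of 0.

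Hmgcs1 and Lss were 2 of the 5 enzyme genes with several tested probe sets that held both a risen and a fallen one. Among all 6515 genes with several tested probe sets, 8.58% did. The range of log2 fold change within a gene was 1.76 for Hmgcs1, 0.48 for Idi1, 0.98 for Fdft1, 2.43 for Lss and 0.66 for Cyp51. Over all such genes the median range was 0.77, and 81.2% of them had a smaller range than Hmgcs1 and 89.8% a smaller one than Lss, while Idi1 and Cyp51 were below the median.

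The disagreement can be read pool by pool as the ratio of paired probe sets of the same gene. Only the change of such a ratio between pools has a meaning, since probe sets differ in brightness. In Hmgcs1 the ratio of 1433443_a_at to 1433446_at was 2.10, 2.18 and 2.50 in control pools and 9.86, 3.92 and 11.6 in diabetes-exposed pools, a mean ratio 3.39 times as high. In Fdft1 the ratio of 1438322_x_at to 1448130_at was 0.942, 0.973 and 1.01 in control pools and 2.18, 1.39 and 2.33 in diabetes-exposed pools. Pools stood in the same order as by the actin ratio, with exposed pools 1 and 3 high and exposed pool 2 nearest to the controls. In Idi1 the ratio of 1423804_a_at to 1451122_at was 0.431, 0.416 and 0.417 in control and 0.657, 0.473 and 0.658 in diabetes-exposed pools, with the same placing of pool 2. In Lss and Cyp51 pool 2 was also the nearest, but the exposed pools lay closer to each other. The ratio of 1420013_s_at to 1426913_at of Lss was 1.59, 1.43 and 1.70 in control and 2.44, 2.31 and 2.64 in diabetes-exposed pools, and that of 1422533_at to 1450646_at of Cyp51 was 0.689, 0.656 and 0.673 against 1.06, 0.869 and 0.928. Over the 18 pairs of tested probe sets that belong to one gene, the groups' ratios did not overlap in 12, from 5 genes, and in 10 of the 12 exposed pool 2 was the nearest to the control mean. These pairs share probe sets, and the signals of single probe sets did not overlap in 49.9% of all. The share over the pairs of all genes was not computed, so the count shows nothing particular to the enzymes. The pairs named are, for each gene, those with the largest gap in fold change among probe sets brighter than 60% of all, a rule set after their values were seen.

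**Figure D3:**
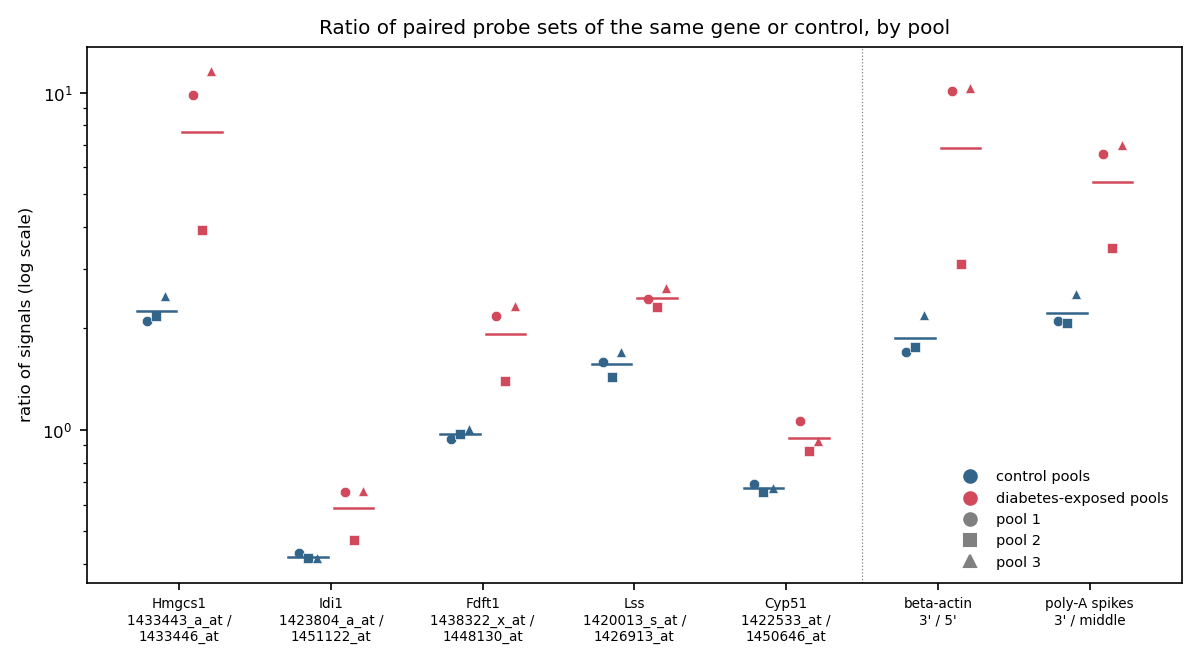
Ratio of paired probe sets (log scale) by pool for 5 enzyme genes, and the 3′ to 5′ ratio of beta-actin and the 3′ to middle ratio of the poly-A spikes to the right of the dotted line. Blue marks are control and red marks diabetes-exposed pools, lines are geometric means, and exposed pools 1 and 3 stand highest for all 5 genes, actin and the spikes.

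In the 9 enzyme probe sets that passed the test, exposed pool 2 was the exposed pool nearest to the control mean in 7, or 77.8%, and over all 10868 called probe sets it was so in 67.3%. With the mean spike ratio of each array as a covariate, 0 of the 18 enzyme probe sets passed the limma test, with adjusted p-values from 0.16 to 0.98, and 29 probe sets rose and 334 fell in all. In that fit Fdps stood at 0.45 (adjusted p = 0.29), Fdft1 at 0.08 (0.88), Sqle at −0.08 (0.85) and Cyp51 at −0.32 (0.48) in log2 units. When exposed pools 1 and 3 were left out and pool 2 alone was set against the controls, the lone pool being assumed to vary like the controls, 0 enzyme probe sets rose and 2 fell, which were Hmgcs1 1433446_at (log2 fold change −0.59, adjusted p = 0.012) and Lss 1426913_at (−0.84, adjusted p = 0.020). The values of the 8 genes at their brightest probe sets then ran from −0.31 for Cyp51 to 0.42 for Fdft1, with −0.24 for Fdps and −0.27 for Sqle, and 0 of them passed the test. The spike ratio and the group moved together over the 6 arrays, and their parts cannot be told apart here. Exposed pool 2 also had a higher spike ratio than every control pool, so the fit with it alone has the same limit.

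Within groups the 8 enzymes did not share one high or low pool. Control pool 3 held the highest signal of its group for 5 genes, and exposed pool 2 for 4. The median deviation from the group mean over the 8 genes lay between −0.03 and 0.07 log2 units in every pool, while single genes went from −0.45 (Fdps, exposed pool 1) to 0.77 (Fdps, exposed pool 2). Measured as the root mean square distance from the mean profile of the 8 genes over the 6 arrays, in log2 units, Dhcr7 was the nearest at 0.05, followed by Idi1 at 0.09, Cyp51 and Lss at 0.12, Sqle at 0.18 and Hmgcs1 at 0.19. Fdft1 at 0.47 and Fdps at 0.55 lay farther from the enzymes' own mean than 80.2% and 87.0% of all genes did. The genes outside the pathway with the profile most like that mean were Ccnl2, Ybx1, Zdhhc16, Rabif and Haus5, at distances of 0.023 to 0.027. Their log2 fold changes of −0.15 to −0.21 did not pass the test. The size of these changes follows from the choice of genes near that mean and is no result about them.

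Among the remaining enzymes of cholesterol synthesis, which genes passed the test depended on the scaling. Of 13 listed, 10 were measured, and the other 3 were not analysed here. Log2 fold changes ran from −0.57 to 0.38 around a median of −0.14. There 3 fell and 0 rose, against 19.9% and 17.6% of all genes. Those that fell were Mvk and Mvd, which phosphorylate and decarboxylate mevalonate, and Sc5d, which desaturates the ring one step before Dhcr7. Mvk read 497.5, 517 and 454 in control and 340.2, 372 and 329 in diabetes-exposed pools (log2 fold change −0.50, SE 0.12, adjusted p = 0.014). Mvd read 553, 622 and 532.5 against 324.5, 418 and 417 (−0.57, SE 0.14, adjusted p = 0.015), and Sc5d 571, 641.5 and 644 against 459, 497 and 495 (−0.36, SE 0.11, adjusted p = 0.036). In all 3 genes the groups did not overlap, but this held for 8 of the 10 measured genes, on both sides of 0. Among all genes it held for 52.3%. The calls of all 3 were lost with median centring, quantile or loess normalization and without control pool 2 (adjusted p = 0.065, 0.067 and 0.13), that of Mvk also without control pool 1 (0.056), and that of Sc5d on leaving out any pool other than exposed pool 2 (0.057 to 0.13). With the other scalings the balance of calls turned to higher, with 4 risen and 0 fallen under median centring and 3 risen and 1 fallen under quantile or loess normalization. The median of the list was 0.16 under median centring, −0.08 under quantile and −0.13 under loess normalization. Pmvk, Ebp and Hsd17b7, named for this after their values were seen, rose in all 3 of these settings, and as deposited they stood at 0.38, 0.22 and 0.25 with adjusted p-values of 0.061, 0.16 and 0.13.

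Among the genes that control SREBP, 11 of 13 listed were measured, 4 fell and 5 rose, and the median was −0.10. Srebf2, which encodes SREBP-2 itself, read 1257, 1279 and 1043 in control pools and 334, 521 and 331 in diabetes-exposed pools. It fell 3.07-fold, by 1.62 on the log2 scale (SE 0.19, adjusted p = 7.2e-04), again with exposed pool 2 the nearest to the controls. Scap, the escort of SREBP, read 1120.3, 1175 and 1060.3 in control pools and 555, 559 and 554 in diabetes-exposed pools (log2 fold change −1.01, SE 0.10, adjusted p = 3.7e-04), and here the 3 exposed pools read alike. Srebf1, which encodes the SREBP-1 proteins of fatty acid synthesis, read 1098, 1085.5 and 1128 against 888, 631 and 722, with exposed pool 2 the lowest (−0.58, SE 0.13, adjusted p = 0.0098, but 0.25 with median centring). With exposed pool 2 alone against the controls these 3 genes still passed the test, with adjusted p-values of 0.0059, 0.0054 and 0.0081, and Srebf2 then stood at −1.19 and Srebf1 at −0.81. With the spike ratio as covariate they did not, at −0.73, −0.95 and −0.99 with adjusted p-values of 0.14, 0.061 and 0.083.

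On the other side were Mbtps2, the site-2 protease that frees SREBP from the membrane, Marchf6 and Erlin1, which belong to the machinery of sterol-dependent protein turnover, and Insig1. Mbtps2 read 1203, 1165 and 1331 in control pools and 1716, 1583 and 1718 in diabetes-exposed pools (log2 fold change 0.44, SE 0.09, adjusted p = 0.0072). Insig1, itself a known SREBP target, read 1405.5, 1249 and 1399.6 against 1677, 1593 and 1747 (0.31, SE 0.09, adjusted p = 0.030). Marchf6 stood at 0.29 (adjusted p = 0.015) and Erlin1 at 0.41 (adjusted p = 0.025). At their brightest probe sets, Srebf2, Scap, Fdps, Sqle and Cyp51 were lower and Insig1 and Fdft1 higher in the diabetes-exposed pools. Of all genes 19.9% fell and 17.6% rose, and a link between the control genes and the enzymes was not tested. With exposed pool 2 alone, Mbtps2, Marchf6, Erlin1 and Insig1 had values from 0.24 to 0.36 and did not pass the test. The calls of Insig1, Marchf6 and Erlin1 were also lost without control pool 1 or 2 or exposed pool 1 or 3, with adjusted p-values of 0.050 to 0.13. Marchf6 also lost its call under quantile (0.12, adjusted p = 0.15) and loess normalization (0.14, adjusted p = 0.13).

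**Figure D4:**
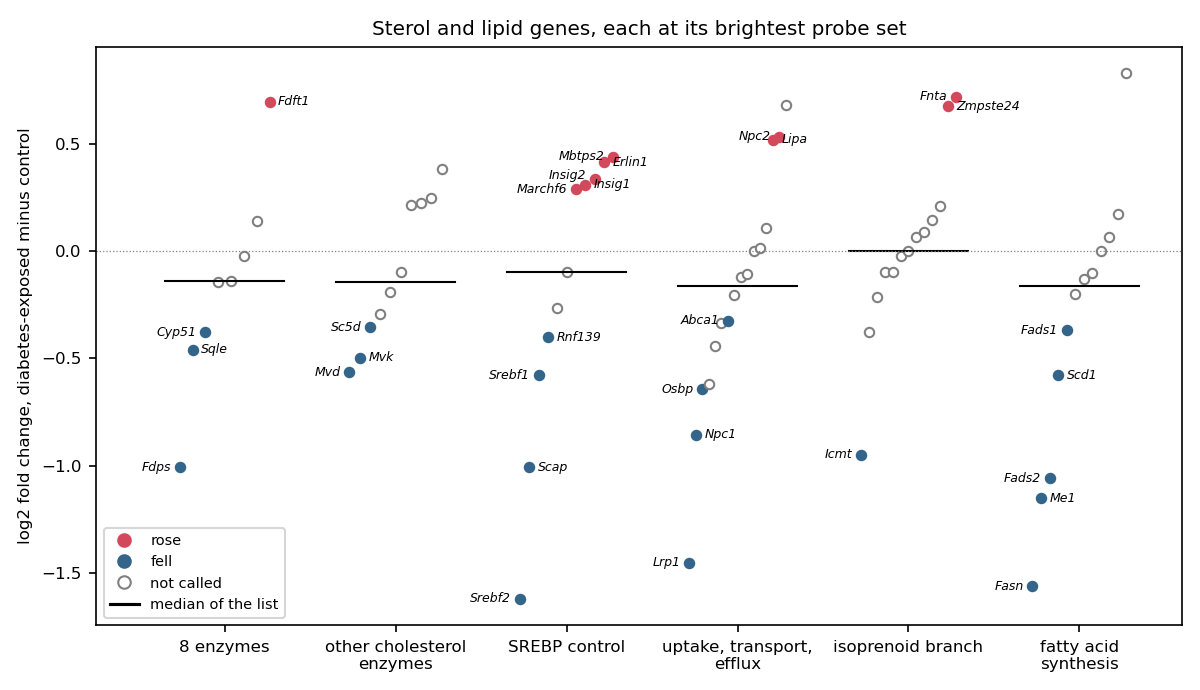
Log2 fold change, diabetes-exposed minus control, of each measured gene at its brightest probe set, for the 8 enzymes and 5 lists of neighbouring pathways. Red marks rose, blue marks fell, open marks did not pass the test and bars are list medians, and each list has genes on both sides of 0.

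Genes of cholesterol uptake, transport and efflux were measured for 16 of 21 listed, with a median of −0.16. Of the 16 genes 4 fell and 2 rose, against 19.9% and 17.6% of all genes. Lrp1, an endocytic receptor for apolipoprotein E, read 1552, 1401 and 1137 in control and 548, 517 and 425 in diabetes-exposed pools (log2 fold change −1.45, SE 0.15, adjusted p = 4.9e-04), and with exposed pool 2 alone it stood at −1.39 (adjusted p = 0.0060). Osbp, an oxysterol-binding protein, and Abca1, the exporter of cholesterol to apolipoproteins, stood at −0.64 and −0.32 with adjusted p-values of 0.0022 and 0.027, and the call of Abca1 was lost without control pool 1 or 2 or exposed pool 1 or 3 (adjusted p = 0.072 to 0.11). Median centring took the calls of both, with Osbp at −0.34 (adjusted p = 0.12) and Abca1 at −0.02 (adjusted p = 0.93), and left 1 fallen gene in the list, and quantile and loess normalization took that of Abca1 (adjusted p = 0.25 and 0.081) and left 2. Npc2 and Lipa, both at work on cholesterol in the lysosome, were higher, at 0.53 and 0.52 with adjusted p-values of 0.0036 and 0.0043. Neither was called higher with the mean of a gene's probe sets, where 0 genes of the list rose, 4 fell and the median was −0.29. The direction of Lipa depended on the probe set, since it stood at −0.84 (adjusted p = 0.028) when probe sets that may bind several transcripts were left out. The median of the list was 0.10 under quantile and 0.02 under loess normalization.

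In the isoprenoid branch, which uses farnesyl diphosphate outside sterol synthesis, 13 of 14 listed genes were measured, and the median was 0.0031. There 2 rose and 1 fell, against 17.6% and 19.9% of all genes. With the mean of a gene's probe sets 3 rose and 5 fell, and the median was −0.21. Fnta, the shared alpha subunit of the protein prenyltransferases, and Zmpste24, which trims farnesylated prelamin A, stood at 0.72 and 0.67 with adjusted p-values of 0.0019 and 0.0014. Icmt, which methylates the ends of prenylated proteins, stood at −0.95 (adjusted p = 0.0019). All 3 genes passed the test with exposed pool 2 alone, with adjusted p-values of 0.016, 0.025 and 0.024, and the genes of the branch as a list moved in no single direction.

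Fatty acid synthesis, the domain of SREBP-1, had all 12 listed genes measured, with a median of −0.16. Of these genes 5 fell and 0 rose, against 19.9% and 17.6% of all genes. Fasn, the fatty acid synthase, read 4775, 4908 and 3994 in control pools and 1607, 1627 and 1393 in diabetes-exposed pools. The exposed pools lay close together at less than any control, and the mean fell 2.95-fold, by 1.56 on the log2 scale (SE 0.11, adjusted p = 1.8e-04). Scd1, a desaturase, read 1545, 1338 and 1402 against 991, 1022 and 859 (−0.58, SE 0.11, adjusted p = 0.0040), and Fads2, the delta-6 desaturase, 1486, 1499 and 993 against 581, 786 and 535 (−1.06, SE 0.20, adjusted p = 0.0041). Under median centring 3 genes of the list fell and 2 rose, and Scd1 stood at −0.28 (adjusted p = 0.20). With the spike ratio as covariate Fasn stood at −1.30 (adjusted p = 0.025), and it was the only gene named here from the 5 lists whose call held in that fit. With exposed pool 2 alone it stood at −1.48 (adjusted p = 0.0025).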

How the data were processed

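Whole-embryo RNA of 6 pools was labelled by the one-cycle method and hybridised to 1 array each. Each probe set has 1 deposited value per array, a linear signal intensity, which the authors derived from matched and mismatched probes by means of GCOS and MAS5 (software versions not given in the sources used here). Since MAS5 scales all arrays to one average, a signal is relative to the rest of the same pool, and with 2% of signals trimmed at each end every array averaged 500. Detection calls were not used here. Precision is limited by the number of arrays, since 3 pools stand in each group.

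The deposited intensities were put on the log2 scale and not scaled again. After 64 control probe sets and the dimmest 33.3% of the others (by mean log2 signal) were dropped, 30025 remained. Groups were fitted with limma 3.58.1 in R 4.3.3 (lmFit, eBayes with a trend), and p-values were adjusted by Benjamini and Hochberg over all 30025. Genes were named by the platform's table, which gave 1 symbol to 34958 probe sets, several to 932 and none to 9211, and each gene was read at its brightest tested probe set with that symbol alone. The ± after a signal is the SD over 3 pools. A trial of the procedure on simulated data found 42 of 100 true differences of 2-fold and 68 of 100 of 4-fold. Of its 115 calls 5 were false. Many true differences were thus missed in the trial, and a gene that did not pass the test here may still have changed. The plots were made with Python 3.11.15 and matplotlib 3.10.9, and promoters were searched in RefSeq sequence of GRCm38.p6.

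The members and lists were chosen with earlier results of these data known. All 8 enzymes were named, then up to 3 risen and 3 fallen genes of each list by smallest adjusted p, with Srebf2 and Insig1, and the 5 genes nearest to the enzymes' mean profile, clone and predicted names left out. Insig2, Rnf139, Npc1, Fads1 and Me1, which the plot of the pathway lists also names, fall outside this rule and were named after their values were seen. Alternatives were median centring, quantile and loess normalization, a pseudocount of 32, no filter and a filter of 50%, no trend in eBayes, the mean of a gene's probe sets, leaving out probe sets ending in _s or _x, Welch's test as the study's methods name it, the replicate number as a block, the spike ratio (mean over 8 pairs of spike probe sets) as covariate, and leaving out each pool or exposed pools 1 and 3.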

Additional observations from a re-analysis of the deposited data

How the results depend on the processing

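Sqle, Fdft1, Cyp51 and Fdps were called in the direction given above in 16, 15, 12 and 11 of 20 alternative settings, Hmgcs1 in 4 (2 of them in the opposite direction of its value above), Lss in 1, and Idi1 and Dhcr7 in 0. Median centring gave 7527 risen and 3902 fallen probe sets, against 4318 and 6550, left 2 fallen enzyme probe sets and 1 fallen enzyme, and turned medians to 0.16 for the 8 enzymes, 0.16 for the other cholesterol enzymes, 0.21 for SREBP control, 0.14 for uptake, transport and efflux and 0.14 for fatty acid synthesis. Quantile normalization gave 6310 risen and 5231 fallen probe sets, with 4 risen and 8 fallen enzyme probe sets. Loess normalization gave 5213 and 5750, with 3 risen and 8 fallen enzyme probe sets. In that order they gave enzyme medians relative to all genes of −0.30 and −0.22 and uptake medians of 0.10 and 0.019. Hmgcs1 then stood at −0.17 (adjusted p = 0.019) and −0.17 (adjusted p = 0.046). With no trend in eBayes 3140 probe sets rose and 5330 fell, with 2 risen and 3 fallen enzyme probe sets, and 1 enzyme fell. The mean of a gene's probe sets left 0 risen enzymes and a relative median of −0.0059. It gave medians of −0.24 for the other cholesterol enzymes, −0.015 for SREBP control and −0.29 for uptake, transport and efflux. Those of the isoprenoid branch and fatty acid synthesis were −0.21 and −0.45, beside −0.11 over all genes. Without probe sets ending in _s or _x the enzyme median was −0.33, or −0.30 relative to all genes, and Fdft1 stood at −0.28. The methods' t-test, Welch's, gave 4415 risen and 5406 fallen probe sets unadjusted, with 2 risen and 3 fallen enzyme probe sets, and after Benjamini-Hochberg adjustment 81 and 333, with 0 risen and 1 fallen enzyme probe sets and 0 enzymes either way. With the spike ratio as covariate 29 probe sets rose and 334 fell, 0 enzyme probe sets and 0 enzymes either way, with an enzyme median of −0.084, Fdps at 0.45, and medians of 0.071 for SREBP control and 0.043 for uptake. With exposed pool 2 alone 1467 probe sets rose and 3639 fell, with 0 risen and 2 fallen enzyme probe sets, 0 enzymes either way and a SREBP control median of 0.017. The cause of these shifts was not tested. Leaving out 1 pool at a time gave 2731 to 4957 risen and 4375 to 7367 fallen probe sets, 1 to 4 risen and 3 to 6 fallen enzyme probe sets, 1 to 2 risen and 1 to 3 fallen enzymes, and enzyme medians of −0.17 to −0.11 (−0.18 to −0.11 relative to all genes). Without control pool 2 or exposed pool 1, 3 enzyme probe sets and 1 enzyme fell, and without exposed pool 1 or 3 only 1 enzyme probe set rose. Same-numbered pools did not all deviate together (correlations of their deviations of 4.9e-05, 0.076 and 0.12), so the numbers were not taken as pairs. With the replicate number as a block, 4330 probe sets rose and 6687 fell, with 3 risen and 5 fallen enzyme probe sets and the same counts of 1 risen and 3 fallen enzymes. The dimmest enzyme probe sets, with signals under 60, are limited by signal over background.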
